A study of Mus musculus with 12 samples.

Results

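The genes of mitosis followed here are 49 genes of cell division: proliferation markers, mitotic transcription factors, cyclins and CDK phosphatases, mitotic kinases, the chromosomal passenger complex, the kinetochore, the spindle checkpoint, the machinery of anaphase, proteins of the spindle and of cytokinesis, and condensin. They were taken by a list of symbols that uses no measured values but was chosen with earlier results of these data known. All 49 were found among the 22609 genes counted. RNAseq was performed on ANS cells, adherent neural stem cells obtained from the brain of normal mouse embryos at E14.5. There were 12 libraries of polyA RNA from bulk cultures. The 3 T0 libraries came from proliferating cells in growth medium with the supplement N2, 20 ng/ml FGF2 and 20 ng/ml EGF. The 3 T1 libraries came from cells kept for 2 days in medium D1, which holds N2 and B27, 10 ng/ml FGF and 2 ng/ml EGF, and the labels describe their proliferation as strongly reduced. The 4 T2 libraries came from cells moved from medium D1 to medium B and kept there for 2 days on laminin, with N2, B27, 10 ng/ml FGF2 and 20 ng/ml BDNF and no EGF, and the labels describe proliferation there as absent. The 2 T3 libraries, replicates 1 and 4, came from cells kept for 10 days in medium B and labelled as overtly differentiated and GAD positive. These times are those of the labels, and the study's text and methods give longer ones for some steps. All groups share FGF2 and N2. The replicates are called biological by the submitters, with no statement on separate derivations, so the p-values measure the spread between these libraries.

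Mitosis depends on a burst of transcription in late G2, driven by the factors FOXM1 and B-MYB, which yields cyclins, kinases and structural proteins that are needed only for division. Kinetochores built on centromeres bind the spindle microtubules, the spindle checkpoint holds anaphase back until every chromosome is attached, and the anaphase-promoting complex (APC/C) then marks securin and cyclin B for destruction so that separase can cut cohesin. In the embryonic brain, progenitors pass through this program at every division, and neurons leave it for good.

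The counts on genes ranged from 8910724 to 16631614 per library, and each member had between 26 and 12180 counts in every library, so none was near the limit of detection. Levels are given as CPM, read counts scaled to the effective library size. T0 replicate 3 stood apart. Its counts differed from those of T0 replicates 1 and 2 with a chi-square statistic per gene of 96.4 and 99.9, whereas the other 2 T0 libraries differed by 3.17, and the astrocyte gene Gfap was at 0.49 CPM in it against 146 and 148 in the others. The T3 libraries differed by 32.4. The 8 progenitor markers used to check the cells summed to 6786 to 8179 CPM at T0. In the later libraries they summed to 5979 to 8157 CPM. Vim was the largest part in every library, at 3018 to 3765 CPM at T0 and 1990 to 2912 later. These markers did not move together. Hes5 was at 27.1 to 59.9 CPM at T0 and 9.19 to 19.5 later, and Fabp7 at 748 to 2259 and 1284 to 2289. By edgeR adjusted p under 0.05, 1 of the 8 was lower than T0 for T1, 2 for T2 and 0 for T3. The T3 fit put 6 below T0 and 2 above, from a log2 fold change of -2.04 (Hes5) to 0.54 (Fabp7). The 8 neuron markers summed to 894 to 961 CPM at T0 and 1701 to 2707 later. Most of that sum was Mtap2, at 880 to 917 CPM at T0 and 1312 to 2186 later. Rbfox3, Snap25 and Syt1 were at 3.11 CPM or less in every library, and Stmn2 was at or near 0. The 8 markers of the oligodendrocyte lineage, none at 0 throughout a time point, summed to 3156 to 3625 CPM in the T0 libraries. Their sum was between 3958 and 4558 CPM over the T1 and T2 libraries, and 4978 and 5973 CPM in T3 replicates 1 and 4. Olig1 and Olig2 made up most of it, at 2179 to 2293 and 935 to 1352 CPM at T0 and at 4259 and 1635 CPM in T3 replicate 4. Of 7 of these markers tested at T3 against T0, 5 had a fitted value above T0 and 2 below. The lowest was Sox10, at 0.706 to 3.36 CPM at T0 and 0.108 to 0.676 later. The 6 astrocyte markers summed to 1913 to 2870 CPM at T0 and 1715 to 2878 later. Aldoc made up most of that sum, at 1126 to 2368 CPM. At T3 against T0, 4 of the 6 had a fitted value below T0 and 2 above, from a log2 fold change of -1.77 (Gfap) to 1.31 (Slc1a2). Microglial markers had at most 3 counts per gene in any library, and the 7 fibroblast and vascular markers summed to at most 3.22 CPM. For the GAD of the T3 labels, Gad1 was at 48.3 CPM in T3 replicate 1 and 23.9 in replicate 4, against at most 4.03 at T0. It was already at 32.7 to 40.5 CPM at T1 and 44.0 to 56.4 at T2, so T3 replicate 4 lay below every T1 and T2 library.

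The mitotic genes fell nearly as one block when the cells left growth medium. At T1, 48 of the 49 were lower than at T0 at an edgeR adjusted p under 0.05, where 16.8% of all genes tested were called lower, and at T2 again 48 were lower, against 21.8% of all genes. The median log2 fold change of the 49 was -3.63 at T1 and -3.06 at T2, against -0.0082 and 0.0023 over all genes tested. The checkpoint gene Bub1b fell most at both times, 18.1-fold at T1 and 12.4-fold at T2. Cdc25b, a phosphatase that activates CDK1, was the member not called at either. Every T1 and T2 library lay below every T0 library for all 49 genes, Cdc25b included, which held for 27.2% and 26.6% of all genes tested at T1 and T2. In bulk RNA, fewer dividing cells and less of each RNA per dividing cell cannot be told apart. Without T0 replicate 3 the same counts were 48 and 48, with medians of -3.32 and -2.76.

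At T3 the members were between both states. Their CPM had a median of 35.9% of the T0 mean, against 8.16% at T1 and 11.9% at T2, and 48 of them lay below every T0 library and above every T2 library. The exception on both sides was Cdc25b. T3 lower than T0 in every library held for 25.5% of all genes tested, and T3 higher than T2 in every library for 12.7%. The level differed between the T3 cultures. The median was 21.9% of the T0 mean in replicate 1 and 48.4% in replicate 4.

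**Figure D1:**
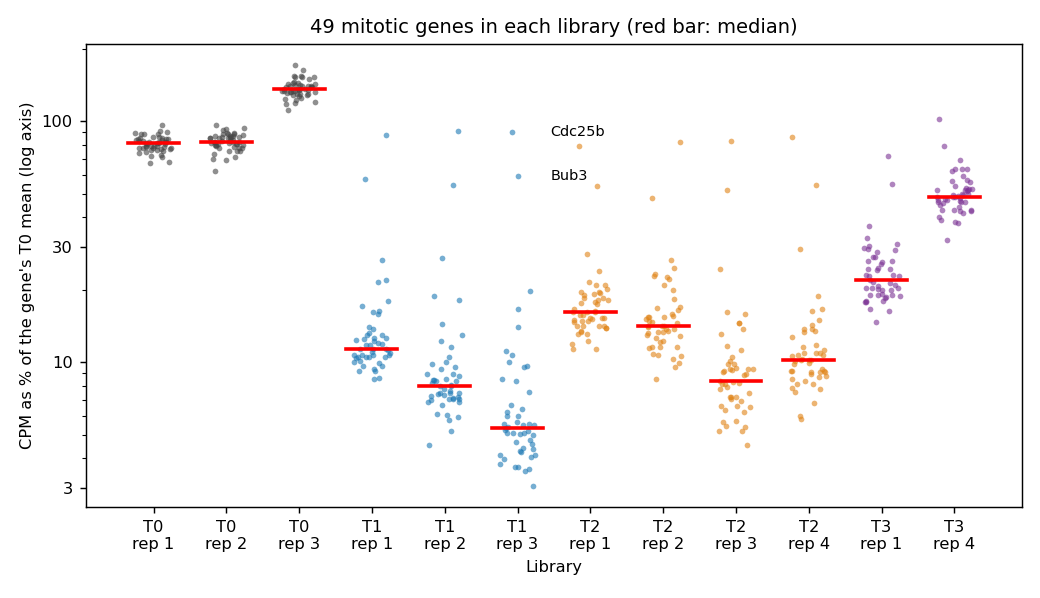
CPM of each of the 49 mitotic genes as a percentage of its mean over the 3 T0 libraries (log axis), in each of the 12 libraries, with 1 point per gene and a red bar at the median. The medians lie at 5.34% to 11.4% in the T1 libraries, 8.36% to 16.1% in the T2 libraries, and 21.9% and 48.4% in the T3 libraries, and Cdc25b and Bub3 stay above the rest in every T1 and T2 library.

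The libraries of 1 time point also differed from each other over the members. All 49 members were higher in T0 replicate 3 than in both other T0 libraries, where 47.6% of all genes tested were, by 1.18-fold (Cdc25b) to 2.64-fold (Plk1) over the mean of the other two, with a median of 1.67. All 49 were higher in T3 replicate 4 than in T3 replicate 1, against 50.7% of all genes, by 1.41-fold (Cdc25b) to 3.30-fold (Ube2c), with a median of 2.15. At T1, 43 of the 49 were lowest in replicate 3, against 40.1% of all genes. At T2, 45 of the 49 were lower in both replicates 3 and 4 than in both replicates 1 and 2, against 22.5% of all genes. These orders were seen in the data and were not tested, since they compare single libraries. In T3 replicate 4 the neuron markers summed to 1701 CPM, against 2707 in replicate 1, with the microtubule protein Dcx at 271 against 546 CPM. Rbfox3 and Syt1, at 1.62 and 1.29 CPM in replicate 4, were not lower there. The oligodendrocyte lineage markers were split. Olig1 was at 4259 against 3329 CPM in replicate 1 and Olig2 at 1635 against 1389, but Pdgfra was at 67.6 against 227. Cspg4 and Sox10 were also lower in replicate 4, at 2.27 and 0.108 CPM against 2.58 and 0.333. The part of these differences in the mitotic levels was not tested.

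The sequence before the start site was read for the members, since most of them moved together. RefSeq promoter windows, on GRCm38.p6, a later build than the mm9 of the expression files, were found for 40 of the 49 members by symbol, and none for Foxm1, Ccna2, Cdc25c, Aurkb, Incenp, Spc24, Tpx2, Cdca2 and Smc4. In the 250 bases before the start, both strands were searched for CCAAT, the box bound by NF-Y, for the cell cycle homology region (CHR) that DREAM and the B-MYB complex bind, in the usual form TTTGAA and the rarer form TTCGAA, and for TTTCGCGC, an E2F motif. On the opposite strand the CCAAT box appears as ATTGG and the usual CHR form as TTCAAA, whereas the rarer form is its own reverse complement. No motif contains another. A gene with several windows was counted when any of them held the motif. CCAAT was present for 29 of the 40 members (72.5%), against 41.2% of 8828 genes tested at T1 and 37.5% of all 27025 genes with a window. A CHR form was present for 14 members (35%), against 14.2% and 19.6%, and all 14 of those also had CCAAT, against 5.73% and 7% with both. CCAAT lay 1 to 60 bases before a CHR form for 9 members (22.5%), against 1.77% and 2.08%. TTTCGCGC was found for none of the 40, against 0.65% and 0.30%. These shares were not tested and depend on base composition, and a match is a description of letters.

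The 100 bases before the start are shown for 9 members, with matches in capitals: Cdc20, Ube2c, Espl1 and Top2a as genes that fell strongly and hold both motifs, Ccnb1 and Plk1 as strong fallers with CCAAT alone, Bub1b as the largest fall, and Bub3 and Cdc25b as the smallest.
Cdc20 (chr4:118437344-118437443, minus strand): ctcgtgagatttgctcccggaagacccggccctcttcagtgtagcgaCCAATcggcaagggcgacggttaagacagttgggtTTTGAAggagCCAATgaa
Ube2c (chr2:164769829-164769928, plus strand): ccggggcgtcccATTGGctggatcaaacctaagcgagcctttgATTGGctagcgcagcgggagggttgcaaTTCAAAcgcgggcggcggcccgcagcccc
Espl1 (chr15:102296193-102296292, plus strand): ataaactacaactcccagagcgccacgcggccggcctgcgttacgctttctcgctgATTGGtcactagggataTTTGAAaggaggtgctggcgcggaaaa
Top2a (chr11:99024190-99024289, minus strand): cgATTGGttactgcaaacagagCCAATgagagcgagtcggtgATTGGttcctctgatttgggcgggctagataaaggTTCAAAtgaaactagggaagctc
Ccnb1 (chr13:100786487-100786586, minus strand): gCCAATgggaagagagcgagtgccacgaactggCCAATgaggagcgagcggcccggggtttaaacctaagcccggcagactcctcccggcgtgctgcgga
Plk1 (chr7:122159335-122159434, plus strand): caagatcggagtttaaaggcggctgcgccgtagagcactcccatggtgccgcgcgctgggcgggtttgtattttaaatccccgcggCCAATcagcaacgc
Bub1b (chr2:118598111-118598210, plus strand): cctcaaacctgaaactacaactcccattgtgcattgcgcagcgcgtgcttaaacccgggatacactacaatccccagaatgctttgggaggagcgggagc
Bub3 (chr7:131560270-131560369, plus strand): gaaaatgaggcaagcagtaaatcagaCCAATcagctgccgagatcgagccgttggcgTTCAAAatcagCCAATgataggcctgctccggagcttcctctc
Cdc25b (chr2:131186848-131186947, plus strand): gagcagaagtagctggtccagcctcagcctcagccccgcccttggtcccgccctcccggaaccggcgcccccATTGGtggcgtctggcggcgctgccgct
The 100 bases of Bub1b hold no match, although the wider window of 250 bases has 1 CCAAT and 1 TTCGAA farther from the start. Bub3 holds TTTGAA on the opposite strand between a pair of CCAAT boxes, an arrangement present in both of its overlapping listed windows, the same kinds of motif as Cdc20, and Cdc25b holds 1 CCAAT.

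Mki67, which codes for the proliferation antigen Ki-67 that coats mitotic chromosomes (mm9 chr7:142881471-142908062, minus strand), was at 569, 602 and 859.7 CPM at T0, 84.3, 54.01 and 31.4 at T1, 95.9, 114, 44.4 and 56.9 at T2, and 195 and 313 in T3 replicates 1 and 4. It was 12.1-fold lower at T1 and 8.68-fold lower at T2. Against T0, its T3 level differed on the log2 scale by -1.40 (SE 0.30 and edgeR adjusted p = 0.058). Top2a, the topoisomerase that untangles sister DNA (mm9 chr11:98854257-98885503, minus strand), had values of 410.1, 432 and 549.6 CPM at T0, 54.8, 34.3 and 20.4 at T1, 70.5, 69.1, 30.5 and 41.4 at T2, and 121 and 199 in T3 replicates 1 and 4. The fit placed Top2a at log2 fold changes of -3.68 at T1 (SE 0.37), -3.13 at T2 (SE 0.29) and -1.52 at T3 (SE 0.28), with edgeR adjusted p = 0.00091, 0.00014 and 0.043. In both cases the highest T1 or T2 library stayed under the lower T3 library, and Top2a was 1 of only 2 members called lower at T3. Its promoter above holds 3 CCAAT boxes and a CHR form within 100 bases.

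Foxm1 and Mybl2 code for the transcription factors FOXM1 and B-MYB that switch on the late cell cycle genes. Foxm1 (mm9 chr6:128312985-128325911, plus strand) was at 138, 138 and 229.7 CPM at T0, 28.8, 19.5 and 16.2 at T1, 35.1, 38.3, 22.02 and 27.5 at T2, and 50.98 and 106 in T3 replicates 1 and 4. Foxm1 had log2 fold changes of -2.98 at T1 (SE 0.30), -2.45 at T2 (SE 0.25) and -1.08 at T3 (SE 0.39), with edgeR adjusted p = 0.00094, 0.00018 and 0.15. Mybl2 (mm9 chr2:162880423-162910424, plus strand) was at 23.9, 23.1 and 41.6 CPM at T0, 4.03, 3.09 and 3.16 at T1, 5.70, 6.68, 4.29 and 4.05 at T2, and 9.65 and 16.5 in T3 replicates 1 and 4. For Mybl2 the log2 fold changes were -3.12 at T1 (SE 0.29), -2.51 at T2 (SE 0.27) and -1.16 at T3 (SE 0.38), with edgeR adjusted p = 0.00071, 0.00025 and 0.12. Both fell at T1 and T2, by less than the median member, and their T3 libraries lay between the T2 and T0 ranges without passing the test.

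Of the 6 cyclins and CDK phosphatases, 5 fell at T1 and at T2, and none was called at T3. Ccnb2, a cyclin B that binds CDK1 at the Golgi (mm9 chr9:70255496-70269361, minus strand), was at 93.4, 87.8 and 145 CPM at T0, 11.4, 7.46 and 3.83 at T1, 16.4, 11.6, 5.85 and 8.53 at T2, and 20.1 and 52.6 in T3 replicates 1 and 4. Ccnb2 had log2 fold changes of -3.87 at T1 (SE 0.41), -3.36 at T2 (SE 0.33) and -1.57 at T3 (SE 0.46), with edgeR adjusted p = 0.0011, 0.00017 and 0.1, the largest of the group. Ccnb1, the main cyclin B of mitotic entry (mm9 chr13:101548605-101556525, minus strand), read 39.7, 41.7 and 84.8 CPM at T0, 5.84, 4.29 and 2.37 at T1, 7.82, 6.96, 3.84 and 5.03 at T2, and 12.7 and 33 in T3 replicates 1 and 4. T3 replicate 4 was the closest to the T0 range, and replicate 1 was nearer to T2. Ccna2 (cyclin A2), Ccnf (cyclin F) and Cdc25c, a CDK1-activating phosphatase, fell by log2 fold changes of -3.53, -3.26 and -3.80 at T1 and -2.91, -2.71 and -2.97 at T2.

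Cdc25b, the sister phosphatase that starts CDK1 activation at centrosomes (mm9 chr2:131012685-131024233, plus strand), kept most of its level. It was at 98.4, 93.8 and 114 CPM at T0, 89, 92.4 and 91.8 at T1, 80.1, 83.4, 84.6 and 88.1 at T2, and 73.3 and 104 in T3 replicates 1 and 4. Cdc25b had log2 fold changes of -0.17 at T1 (SE 0.11), -0.27 at T2 (SE 0.10) and -0.19 at T3 (SE 0.20), with edgeR adjusted p = 0.27, 0.059 and 0.58. The T1 and T2 libraries lay under every T0 library, but at 89.4% and 82.5% of the T0 mean on average, and T3 replicate 4 lay inside the T0 range. Cdc25b was the only member whose T3 libraries overlapped those of T0 and T2, and without T3 replicate 1 its T3 change against T0 was 0.040 in place of -0.19.

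All 5 mitotic kinases fell at T1 and T2. Melk, a kinase of proliferating progenitors (mm9 chr4:44313748-44377547, plus strand), was at 56.7, 59.8 and 122 CPM at T0, 7.29, 3.62 and 3.77 at T1, 11.7, 10.8, 5.03 and 6.13 at T2, and 12.97 and 41.2 in T3 replicates 1 and 4. Melk had log2 fold changes of -4.04 at T1 (SE 0.43), -3.25 at T2 (SE 0.38) and -1.54 at T3 (SE 0.59), with edgeR adjusted p = 0.0011, 0.00034 and 0.17, the largest fall of the kinases at T1. Plk1, which drives mitotic entry and centrosome maturation (mm9 chr7:129302951-129313389, plus strand), varied most within T0, at 87.5, 81.1 and 223 CPM at T0, 12.01, 9.94 and 6.51 at T1, 14.9, 17.3, 9.41 and 11.8 at T2, and 26.5 and 74.3 in T3 replicates 1 and 4. Relative to T0, Plk1 stood at log2 fold changes of -3.80 at T1 (SE 0.48), -3.29 at T2 (SE 0.38) and -1.36 at T3 (SE 0.63), with edgeR adjusted p = 0.0019, 0.00036 and 0.24. T0 replicate 3 was more than the sum of the other 2 T0 libraries for this gene, and its standard errors were among the larger ones of the members.

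Plk4, the kinase that starts centriole duplication (mm9 chr3:40603941-40620805, plus strand), fell least among the kinases at T1 and T2, with values of 55.1, 60.5 and 92.96 CPM at T0, 11.2, 8.51 and 7.72 at T1, 12.2, 13.9, 8.13 and 9.38 at T2, and 17.1 and 32.8 in T3 replicates 1 and 4. The fit placed Plk4 at log2 fold changes of -2.94 at T1 (SE 0.26), -2.67 at T2 (SE 0.24) and -1.47 at T3 (SE 0.37), with edgeR adjusted p = 0.00061, 0.00013 and 0.078. Nek2, which splits the centrosomes (mm9 chr1:193645323-193656929, plus strand), was at 53.7, 54.3 and 95.4 CPM at T0, 8.41, 4.82 and 2.56 at T1, 9.18, 8.17, 3.84 and 6.69 at T2, and 13.7 and 25.9 in T3 replicates 1 and 4. Relative to T0, Nek2 stood at log2 fold changes of -3.72 at T1 (SE 0.46), -3.28 at T2 (SE 0.31) and -1.76 at T3 (SE 0.40), with edgeR adjusted p = 0.0018, 0.00015 and 0.064, and its T3 change was the largest of the kinases. Aurka, the spindle pole kinase Aurora A, fell too, with log2 fold changes of -3.66 at T1 and -3.09 at T2.

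The 4 genes of the chromosomal passenger complex, which corrects wrong attachments and then guides cytokinesis, all fell at T1 and T2. Aurkb, its kinase Aurora B (mm9 chr11:68859149-68865166, plus strand), was at 116, 117 and 219 CPM at T0, 15.3, 8.96 and 6.20 at T1, 19.7, 15.5, 9.41 and 12.2 at T2, and 28.6 and 66.2 in T3 replicates 1 and 4. Aurkb had log2 fold changes of -3.91 at T1 (SE 0.42), -3.41 at T2 (SE 0.31) and -1.66 at T3 (SE 0.47), with edgeR adjusted p = 0.0011, 0.00013 and 0.096. Incenp, the scaffold of the complex (mm9 chr19:9946787-9974023, minus strand), fell least at T1 and T2, at 124, 124 and 208 CPM at T0, 27.5, 19.7 and 15.2 at T1, 32.8, 25.8, 15.4 and 22.8 at T2, and 41.8 and 73.8 in T3 replicates 1 and 4. The fit placed Incenp at log2 fold changes of -2.89 at T1 (SE 0.30), -2.65 at T2 (SE 0.27) and -1.39 at T3 (SE 0.36), with edgeR adjusted p = 0.001, 0.00021 and 0.08. Birc5, or survivin (mm9 chr11:117710565-117717069, plus strand), was at 92.4, 93.3 and 170.3 CPM at T0, 14.1, 8.51 and 6.39 at T1, 22.7, 16.9, 11.1 and 12.3 at T2, and 28.9 and 62.2 in T3 replicates 1 and 4, with log2 fold changes of -3.64 at T1 (SE 0.38), -2.92 at T2 (SE 0.31) and -1.37 at T3 (SE 0.44), with edgeR adjusted p = 0.001, 0.00022 and 0.12. Cdca8, or borealin, had values of -3.59 and -3.06 at T1 and T2 on that scale. For all 4, both T3 libraries lay between the T2 and T0 ranges, and no T3 change against T0 was called.

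Kinetochore genes fell within a narrow range, from -3.31 (Spc25) to -3.78 (Cenpa) at T1, and all 7 were called at T1 and T2. Cenpa, the histone H3 variant that marks centromeres (mm9 chr5:30969150-30977200, plus strand), was at 86.1, 87.01 and 154 CPM at T0, 11.7, 7.91 and 4.62 at T1, 15.2, 12.7, 7.13 and 8.89 at T2, and 22.1 and 57.5 in T3 replicates 1 and 4. Cenpa had log2 fold changes of -3.78 at T1 (SE 0.40), -3.32 at T2 (SE 0.31) and -1.44 at T3 (SE 0.48), with edgeR adjusted p = 0.0011, 0.00014 and 0.13. Spc25, of the NDC80 complex that grips microtubules (mm9 chr2:69031952-69044251, minus strand), was at 49.1, 54.9 and 89.01 CPM at T0, 8.50, 6.33 and 4.87 at T1, 12.6, 10.6, 9.32 and 9.20 at T2, and 18.9 and 40.01 in T3 replicates 1 and 4. The fit placed Spc25 at log2 fold changes of -3.31 at T1 (SE 0.31), -2.62 at T2 (SE 0.23) and -1.12 at T3 (SE 0.41), with edgeR adjusted p = 0.00071, 0.00011 and 0.16. The other NDC80 subunits Ndc80, Nuf2 and Spc24 fell at T1 with log2 fold changes of -3.61, -3.75 and -3.42. Cenpf, a large protein of the outer kinetochore (mm9 chr1:191464478-191511965, minus strand), was at 182, 204 and 317 CPM at T0, 32.95, 22.1 and 13.1 at T1, 47.3, 54.5, 21.5 and 29.8 at T2, and 72.5 and 127 in T3 replicates 1 and 4, and Cenpf had log2 fold changes of -3.39 at T1 (SE 0.38), -2.61 at T2 (SE 0.33) and -1.22 at T3 (SE 0.35), with edgeR adjusted p = 0.0013, 0.00052 and 0.097.

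Cenpe, the kinesin that carries chromosomes to the spindle equator (mm9 chr3:134875527-134936504, plus strand), read 126, 121 and 176 CPM at T0, 14.6, 9.94 and 7.97 at T1, 19.9, 19.8, 7.67 and 12.3 at T2, and 34.2 and 53.1 in T3 replicates 1 and 4. Relative to T0, Cenpe stood at log2 fold changes of -3.72 at T1 (SE 0.27), -3.24 at T2 (SE 0.32) and -1.68 at T3 (SE 0.28), with edgeR adjusted p = 0.00049, 0.00016 and 0.035. It was, with Top2a, a member called lower at T3.

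In the spindle checkpoint, Bub1b and Bub3 marked the extremes. Bub1b, which codes for BubR1, the subunit that inhibits CDC20 (mm9 chr2:118423947-118467328, plus strand), was at 137, 142 and 246 CPM at T0, 15.02, 9.11 and 5.35 at T1, 21.5, 16.7, 7.95 and 10.2 at T2, and 25.7 and 56.4 in T3 replicates 1 and 4. Bub1b had log2 fold changes of -4.18 at T1 (SE 0.43), -3.64 at T2 (SE 0.36) and -2.08 at T3 (SE 0.44), with edgeR adjusted p = 0.001, 0.00017 and 0.057, each the largest of the 49 members. Bub3, its binding partner (mm9 chr7:138703905-138715412, plus strand), was at 154, 151 and 250.2 CPM at T0, 107, 100.4 and 109.8 at T1, 99.4, 89.4, 95.8 and 101 at T2, and 102 and 147 in T3 replicates 1 and 4. Relative to T0, Bub3 stood at log2 fold changes of -0.82 at T1 (SE 0.21), -0.94 at T2 (SE 0.18) and -0.56 at T3 (SE 0.29), with edgeR adjusted p = 0.025, 0.0038 and 0.28. All T1 and T2 libraries of Bub3 lay between 89.4 and 109.8 CPM, under the lowest T0 library at 151. Its call at T1 was lost without any 1 of the T1 libraries (edgeR adjusted p = 0.087, 0.1 and 0.077). Bub1, Mad2l1 (MAD2) and Ttk (the kinase MPS1) fell at T1 with log2 fold changes of -3.89, -3.42 and -3.53.

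All 5 genes of the anaphase machinery fell at T1 and T2. Cdc20, the activator of the APC/C (mm9 chr4:118105506-118109957, minus strand), was at 106, 95.4 and 208 CPM at T0, 15.02, 9.04 and 7.30 at T1, 17.9, 14.8, 11.4 and 12.5 at T2, and 27.2 and 70.5 in T3 replicates 1 and 4. Cdc20 had log2 fold changes of -3.73 at T1 (SE 0.41), -3.27 at T2 (SE 0.29) and -1.47 at T3 (SE 0.53), with edgeR adjusted p = 0.0012, 0.00013 and 0.15. Ube2c, the ubiquitin-conjugating enzyme that works with the APC/C (mm9 chr2:164595398-164604322, plus strand), was at 75.5, 77.3 and 182 CPM at T0, 12.7, 6.78 and 4.87 at T1, 18.2, 9.56, 9.04 and 10.2 at T2, and 21.4 and 70.4 in T3 replicates 1 and 4. The fit placed Ube2c at log2 fold changes of -3.81 at T1 (SE 0.51), -3.25 at T2 (SE 0.38) and -1.27 at T3 (SE 0.63), with edgeR adjusted p = 0.0024, 0.00035 and 0.26. Both promoters hold a CHR form and a pair of CCAAT boxes within the 100 bases shown, and both genes were highest in T0 replicate 3, above the sum of the other 2 T0 libraries.

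Fbxo5, which codes for the APC/C inhibitor EMI1 that acts from S phase on (mm9 chr10:4540941-4547381, plus strand), fell less than the others, at 37.4, 37 and 55.9 CPM at T0, 11.5, 11.8 and 7.24 at T1, 12.2, 11.5, 10.6 and 12.8 at T2, and 15.97 and 27.6 in T3 replicates 1 and 4. Fbxo5 had log2 fold changes of -2.11 at T1 (SE 0.26), -1.88 at T2 (SE 0.18) and -0.98 at T3 (SE 0.32), with edgeR adjusted p = 0.0018, 0.00014 and 0.12. Pttg1, or securin (mm9 chr11:43233752-43239753, minus strand), was at 117, 109 and 198 CPM at T0, 16.1, 8.66 and 6.45 at T1, 22.9, 16.2, 12.6 and 13.1 at T2, and 25.5 and 69.2 in T3 replicates 1 and 4. Relative to T0, Pttg1 stood at log2 fold changes of -3.79 at T1 (SE 0.41), -3.13 at T2 (SE 0.28) and -1.57 at T3 (SE 0.49), with edgeR adjusted p = 0.0011, 0.00012 and 0.11. Espl1, the separase that securin holds, fell with log2 fold changes of -3.70 at T1 (SE 0.38) and -3 at T2 (SE 0.32). At both times the log2 fold changes of securin and separase were close, and the difference between these genes was not tested.

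The 8 genes of the spindle and of cytokinesis all fell, from -3.45 to -3.95 at T1. Hmmr, a spindle pole protein that also binds hyaluronan (mm9 chr11:40514890-40546939, minus strand), was at 131, 151 and 227 CPM at T0, 16.99, 9.79 and 6.75 at T1, 19.2, 16.9, 8.77 and 11.5 at T2, and 31.5 and 66.2 in T3 replicates 1 and 4. Hmmr had log2 fold changes of -3.95 at T1 (SE 0.39), -3.59 at T2 (SE 0.30) and -1.78 at T3 (SE 0.40), with edgeR adjusted p = 0.00088, 9.7e-05 and 0.063. Nusap1, a microtubule bundler (mm9 chr2:119444034-119476980, plus strand), was at 129.9, 147 and 182 CPM at T0, 19.2, 13.03 and 10.2 at T1, 26.9, 23.02, 15.1 and 16.7 at T2, and 36.9 and 75.6 in T3 replicates 1 and 4. The fit placed Nusap1 at log2 fold changes of -3.45 at T1 (SE 0.27), -2.90 at T2 (SE 0.22) and -1.43 at T3 (SE 0.34), with edgeR adjusted p = 0.00051, 7.5e-05 and 0.07. The log2 fold changes at T1 were -3.54 for Tpx2, which activates Aurora A, -3.62 for Prc1, which cross-links the midzone, -3.63 for Anln (anillin) of the contractile ring, -3.79 for Ect2, the exchange factor that turns on RhoA there, -3.90 for Cdca2, which brings phosphatase to chromatin, and -3.82 for Cdca3. All of these passed the test at T1 and T2, and none at T3.

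The 5 condensin members, whose complex compacts chromosomes, all fell at T1 and T2. Smc2 and Smc4 code for the ATPases shared by condensin I and II, whereas Ncapd2, Ncapg and Ncaph code for subunits of condensin I alone. Ncaph (mm9 chr2:126929545-126959690, minus strand) was at 110.3, 108 and 187 CPM at T0, 11.5, 9.49 and 6.87 at T1, 19.2, 14.4, 7.67 and 11.9 at T2, and 24.4 and 54.2 in T3 replicates 1 and 4. Ncaph had log2 fold changes of -3.88 at T1 (SE 0.30), -3.34 at T2 (SE 0.31) and -1.77 at T3 (SE 0.43), with edgeR adjusted p = 0.00051, 0.00014 and 0.074. Smc4 (mm9 chr3:68808660-68838545, plus strand) was at 190.0, 207 and 363 CPM at T0, 55.4, 47.98 and 49.9 at T1, 48.7, 56.4, 40.2 and 47.8 at T2, and 64.6 and 122 in T3 replicates 1 and 4. Relative to T0, Smc4 stood at log2 fold changes of -2.32 at T1 (SE 0.26), -2.39 at T2 (SE 0.23) and -1.42 at T3 (SE 0.41), with edgeR adjusted p = 0.0013, 0.00016 and 0.097. Smc2 (mm9 chr4:52452115-52501237, plus strand) was at 188, 207 and 319 CPM at T0, 51.2, 43.01 and 33.4 at T1, 56.9, 58.8, 38.3 and 39.5 at T2, and 70.4 and 115 in T3 replicates 1 and 4. The fit placed Smc2 at log2 fold changes of -2.50 at T1 (SE 0.26), -2.30 at T2 (SE 0.23) and -1.35 at T3 (SE 0.33), with edgeR adjusted p = 0.00098, 0.00018 and 0.074. Ncapg and Ncapd2 fell at T1 with log2 fold changes of -3.35 and -2.91. The subunits of condensin II were no members, and of these Ncapg2 was at -3.14 at T1, and Ncapd3 and Ncaph2 at -1.12 and -0.93, all called lower. Differences between subunits were not tested.

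**Figure D2:**
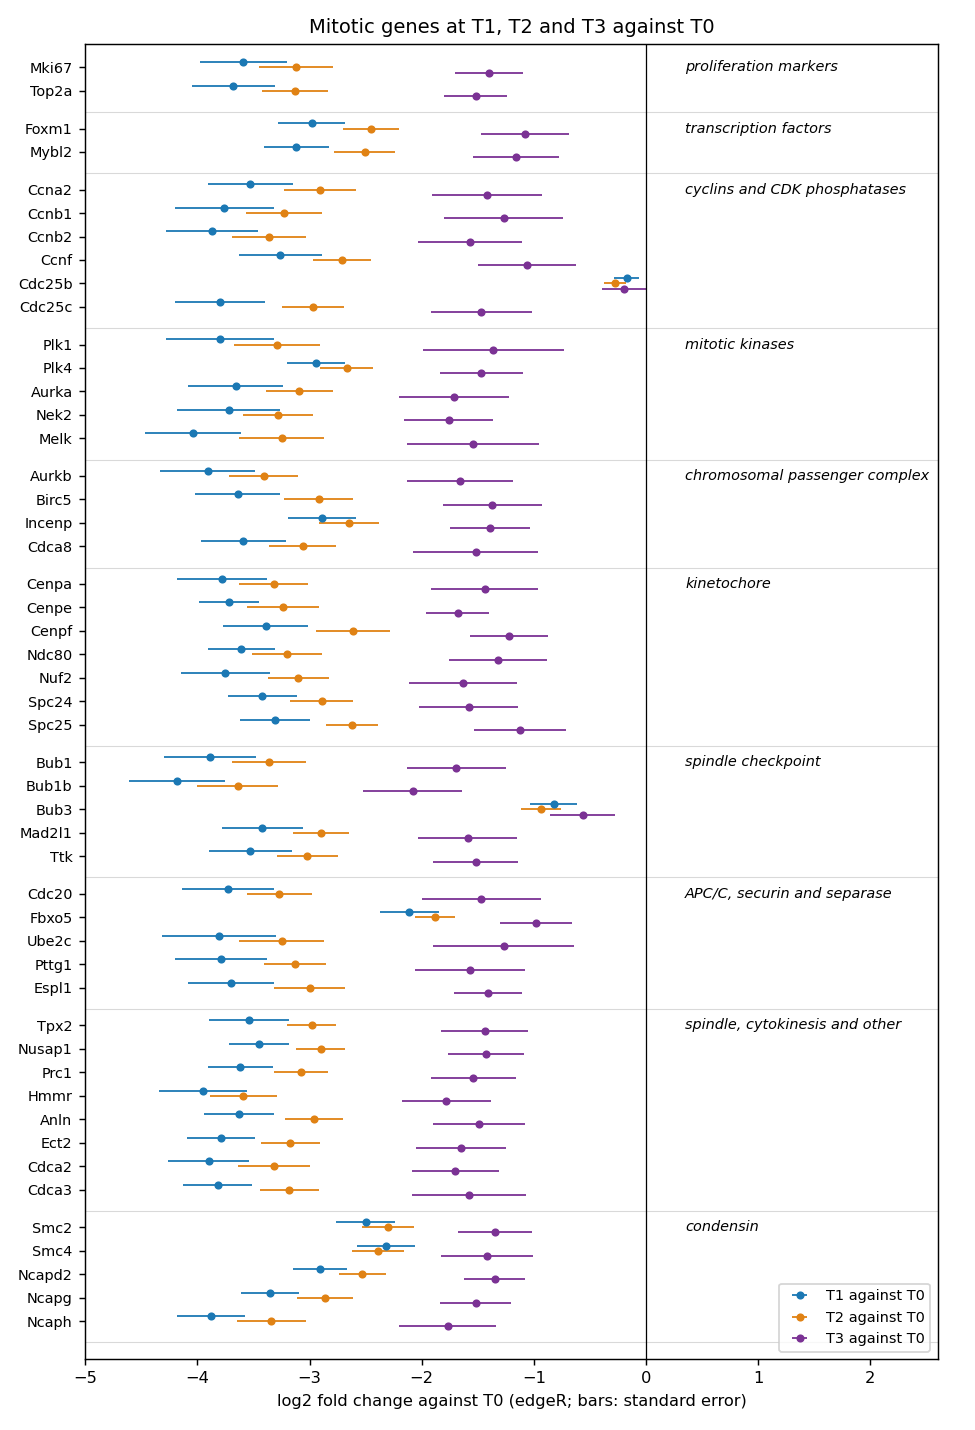
log2 fold change of each of the 49 mitotic genes at T1, T2 and T3 against T0 (edgeR), grouped by role, with bars for the standard error. Of the 49 T1 values 40 are -3 or lower, the T3 values have a median of -1.47, and Cdc25b, Bub3 and Fbxo5 lie nearest to 0 at T1.

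Between T1 and T2, when the cells were moved from medium D1 to medium B, the members stayed low with a slightly higher fitted level at T2. The fitted value was higher at T2 for 46 of the 49, with a median log2 fold change of 0.52, and the exceptions were Bub3, Cdc25b and Smc4. By edgeR without a block 0 of the 49 passed the adjusted p, where 0.573% of all genes were called higher, and 9 were higher at an unadjusted p under 0.05, against 7.43%. DESeq2 also called 0. The labels do not say that a replicate number links cultures, but in these counts T1 and T2 libraries with the same number deviated together. With the replicate number as a block, 12 of the 49 were called higher at T2 (edgeR adjusted p = 0.015 to 0.048), where 1.51% of all genes were. T2 replicate 4 has no T1 partner and adds nothing to that contrast. The genes called were Anln, Birc5, Ccna2, Cdca3, Cenpf, Espl1, Ncapd2, Nusap1, Prc1, Pttg1, Top2a and Tpx2. Ccna2 was highest in replicate 1 and lowest in replicate 3 at both times, at 29.2, 25.01 and 14.3 CPM at T1 and 46.2, 41.4, 23.1 and 27.97 at T2, with a blocked log2 fold change of 0.70 (SE 0.08). The labels describe proliferation as absent at T2, and the members' median there was 11.9% of T0, against 8.16% at T1.

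The T3 comparison with T0 had 2 libraries against 3, and only 2 of the 49 members passed, Top2a and Cenpe, where 1.41% of all genes were called lower. At an unadjusted p under 0.05, 43 of the 49 were lower, against 12.6% of all genes. The adjusted p of the members ran from 0.035 to 0.58 with a median of 0.097, and the median log2 fold change was -1.47. Leaving out T0 replicate 3 gave 13 calls and a median of -1.22, and leaving out T0 replicate 1 or 2 gave 0. The fitted median was -1.03 with T3 replicate 4 alone and -2.18 with T3 replicate 1 alone. In these 2 fits the lone T3 library was assumed to vary like those of T0. DESeq2 called 41 of the 49. The share of all genes called in these alternative fits is not given, so their counts are not a result about the members.

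Against T2, the members were higher at T3, after the longer time in medium B. The fitted value was higher for all 49, with a median log2 fold change of 1.53, and 48 passed an unadjusted p under 0.05, where 9.45% of all genes did. After adjustment 2 members were called higher, Cdc20 and Spc25, where 0.5% of all genes were, with the adjusted p of the others between 0.05 and 0.84. On the log2 scale Cdc20 differed by 1.79 (SE 0.33 and edgeR adjusted p = 0.049) and Spc25 by 1.50 (SE 0.28 and edgeR adjusted p = 0.049). The largest fitted differences were those of Ube2c, at 1.97 (SE 0.43 and edgeR adjusted p = 0.068), Ccnb1, at 1.96 (SE 0.38 and edgeR adjusted p = 0.052), and Plk1, at 1.92 (SE 0.37 and edgeR adjusted p = 0.051). The smallest were those of Cdc25b, at 0.08 (SE 0.14 and edgeR adjusted p = 0.84), Bub3, at 0.37 (SE 0.14 and edgeR adjusted p = 0.24), and Fbxo5, at 0.89 (SE 0.22 and edgeR adjusted p = 0.083).

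The size of this difference rested on which T3 culture was read. With T3 replicate 4 alone the median log2 fold change against T2 was 1.99. With T3 replicate 1 alone it was 0.87, with 48 fitted values above T2. In these fits the spread came from the 4 T2 libraries alone, and the lone T3 library was assumed to vary like them. Calls from such fits do not measure the spread at T3 and are left out. Without any 1 of the T2 libraries 0 were called, with medians of 1.36 to 1.66. DESeq2 called 47 of the 49, and the share of all genes it called is not given beside that count. Both T3 libraries lay above all 4 T2 libraries for 48 members, and T3 replicate 1 was lower than replicate 4 for each. The sum of the oligodendrocyte lineage markers, mostly Olig1 and Olig2, was also above all 4 T2 libraries in both T3 libraries, with replicate 4 above replicate 1. The list did not move as a whole. Of 6 of its markers tested at T3 against T2, 4 had a fitted value above T2 and 2 below. Pdgfra, Cspg4 and Sox10 were lower in T3 replicate 4 than in replicate 1, with Pdgfra at 67.6 against 227 CPM. The level of Pdgfra in replicate 4 lay below every T2 library. The part of these markers in the result was not tested. The comparisons of T3 with T0 and with T2 share the T3 libraries, and those of T1, T2 and T3 with T0 share the T0 libraries.

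**Figure D3:**
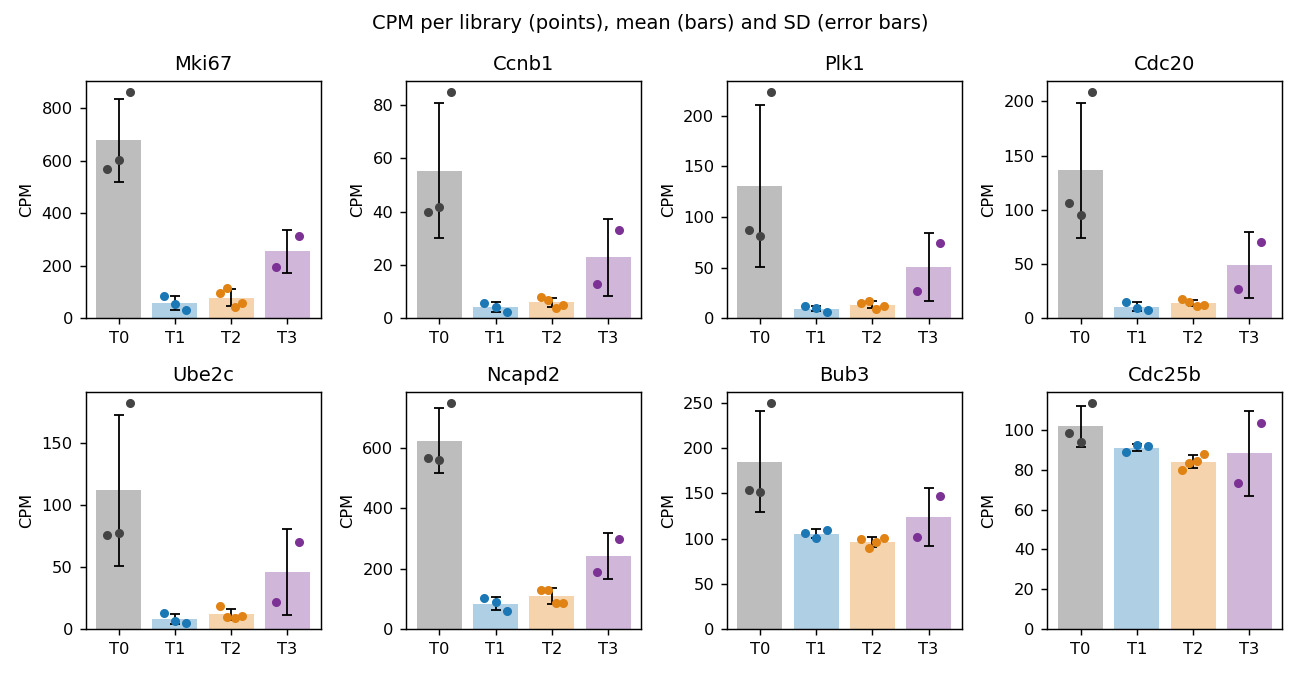
CPM of 8 of the mitotic genes in each library (points), with the mean (bars) and SD (error bars) of the 3 T0, 3 T1, 4 T2 and 2 T3 libraries. For Mki67, Ccnb1, Plk1, Cdc20, Ube2c and Ncapd2 both T3 points lie between the T2 and T0 points, with replicate 4 above replicate 1, whereas Bub3 keeps 89.4 CPM or more and Cdc25b 73.3 CPM or more in every library.

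Levels can be compared between genes only per length, for which the authors' FPKM table serves. At T0 the mean FPKM of the 49 members ranged from 13.1 (Cenpe) to 216 (Cdca3), with a median of 42.1, and all 49 had a mean over 10 FPKM. At T1 only 6 did, with a median of 3.95 FPKM, at T2 10, with a median of 5.32, and at T3 31, with a median of 11.8. The highest at T0 after Cdca3, a regulator of mitotic entry, at 216 ± 85.2 FPKM (SD, n = 3), was securin, Pttg1, at 206 ± 90.2, and their SDs overlapped. Top2a, Ube2c, Ncapd2 and Cenpa followed at 113, 105, 103 and 100.4 FPKM, which differ by less than their SDs. The order changed after T0, since Bub3 was the highest member at T1 and T2, at 39.2 and 33.2 FPKM, and Cdc25b was at 30.3 ± 0.62 at T1 (SD, n = 3). The FPKM table places 40 of the members at the same mm9 position as the GENCODE annotation and 9 on a longer stretch, with Bub3 on one of 3010073 bases, so the FPKM of these 9, among them Bub3, Cdc25b, Ube2c and Cdc20, is less certain than their CPM.

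Other gene lists of the same pathway are given for scale, beside the background of lower calls over all genes, which was 16.8% for T1, 21.8% for T2 and 1.41% for T3. Of 12 mitotic kinesins, which move chromosomes and spindles, 12 fell at T1 and 12 at T2, and 1, Kif15, at T3, with median log2 fold changes of -3.46, -2.94 and -1.38. The lowest was Kif2c, at -4.08 at T1, and the nearest to 0 was Kif20b, at -2.79. Of 30 further kinetochore and centromere genes 26 fell at T1 and 28 at T2, and 3 at T3, with medians of -2.72, -2.46 and -1.23, from -3.94 at T1 for Kntc1, of the checkpoint complex at unattached kinetochores, to -0.10 for the centromere DNA-binding protein Cenpb. Of 32 genes of DNA replication all 32 fell at T1 and T2 and 3 at T3, with medians of -2.40, -2.33 and -1.42. Their range at T1 ran from -4.02 for the licensing factor Cdt1 to -0.99 for the origin subunit Orc6. At T3 against T2 the median was 1.48 for the kinesins, 0.95 for the kinetochore genes and 0.91 for the replication genes, with 1, 0 and 3 called higher.

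Among 9 tested genes that control CDK1, of 11 listed, 6 fell at T1, 7 at T2 and 0 at T3. Cdk1 itself, the kinase bound by cyclin B, was at 152, 168 and 304 CPM at T0, 25.8, 16.8 and 10.6 at T1, 34.3, 25.4, 16.9 and 21.2 at T2, and 39.4 and 97.8 in T3 replicates 1 and 4. Cdk1 had log2 fold changes of -3.56 at T1 (SE 0.41), -3.08 at T2 (SE 0.30) and -1.58 at T3 (SE 0.49), with edgeR adjusted p = 0.0014, 0.00017 and 0.11. The inhibitory kinases Wee1 and Pkmyt1 fell with it at T1, with log2 fold changes of -3 and -3.07. Arpp19 and Ensa, inhibitors of the phosphatase PP2A, were at 0.01 (SE 0.16 and edgeR adjusted p = 0.96) and -0.01 (SE 0.12 and edgeR adjusted p = 0.95), and were not called.

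**Figure D4:**
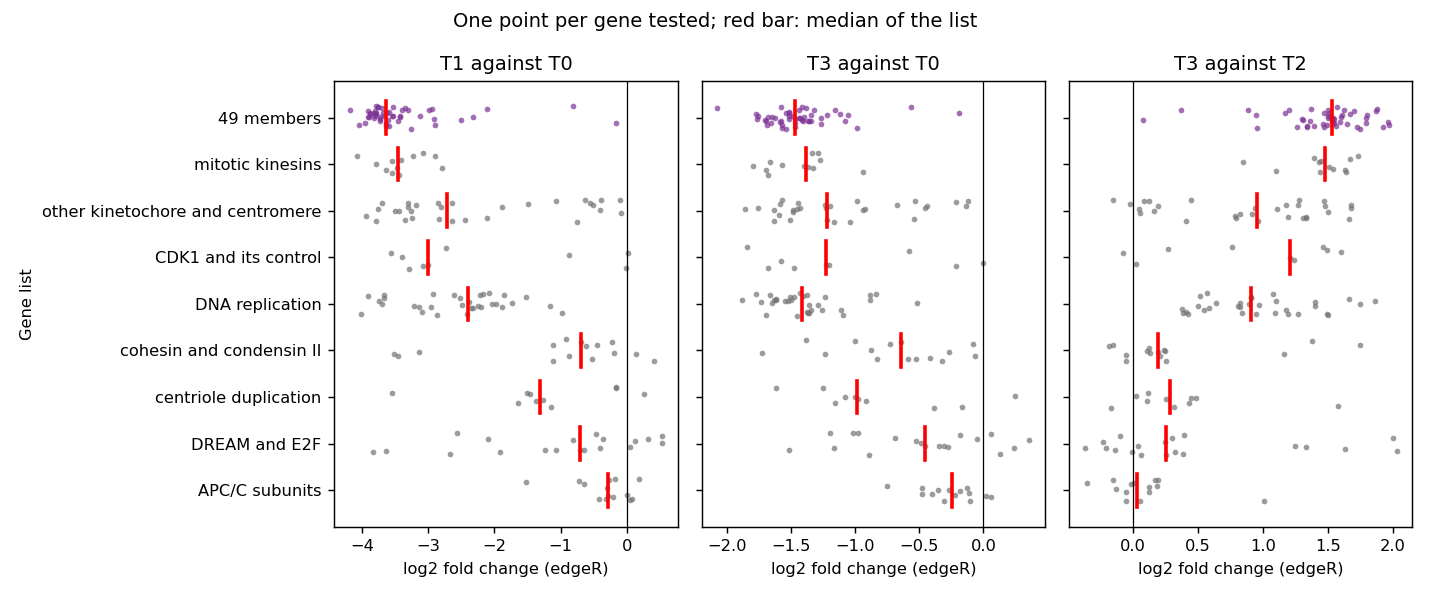
log2 fold changes (edgeR) of the 49 members and of 8 other gene lists at T1 against T0, T3 against T0 and T3 against T2, with 1 point per gene tested and a red bar at the median of the list. The medians of the members and of the mitotic kinesins lie at -3.63 and -3.46 at T1, and that of the APC/C subunits at -0.28.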

How the data were processed

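RNAseq counts were analysed for 12 libraries of ANS cells at T0 (3), T1 (3), T2 (4) and T3 (2), grouped by the labels. The authors made TruSeq v2 libraries of polyA RNA, read them on an Illumina HiScanSQ and mapped the reads to mm9. Per the submitters' processing notes the tools were CASAVA 1.8, TopHat2 2.0.6, Bowtie 0.12.7.0, HTSeq 0.6.0 and DESeq2 1.0.0. They deposited 1 count per gene and library, not normalized, over 22609 genes, and the strand setting of the counting is not given in the sources used here. The 5 entries that name no gene were left out. Uniquely aligned reads on no gene were 13.3% to 24.1%.

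The authors also deposited an FPKM table of 34993 gene identifiers, made with a tool not given in the sources used here. It was used only to compare levels between genes, with no test. No column belonged to other samples, and the column of T3 replicate 4 was matched by its number although its name also holds a 2.

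The members and the other lists were chosen with earlier results of these data known. Values in every library are given for the proliferation markers, the transcription factors, the members with the largest and smallest change of each role, and the 3 largest and 3 smallest differences of T3 against T2, and other lists are given by counts, medians, and lowest and highest gene. Ccna2 in the blocked comparison, Cdk1, Wee1, Pkmyt1 and the condensin II genes were named after their values were seen. Counts were normalized by TMM (factors 0.931 to 1.04), filtered with filterByExpr and tested on the libraries of the 2 groups of each comparison with the edgeR 4.0.16 quasi-likelihood test in R 4.3.3, with Benjamini-Hochberg adjustment over all genes tested (12364 to 12721) and a threshold of 0.05. SEs were computed as the absolute log2 fold change over the root of the F statistic. The fits were tested on simulated data. Same-numbered T1 and T2 libraries deviated together from their group means (r = 0.28, 0.43 and 0.20 over 12201 genes, each library with its own number best), so the block result is given beside that comparison. Alternatives were DESeq2 1.42.0, its size factors, no filter on low counts, 1 fit of all 12 libraries, the replicate block, libraries numbered 1 and 2 only, and each library left out in turn. Precision is limited by 2 to 4 libraries per group. The 3′UTR measurements of the study were not analysed here.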

Additional observations from a re-analysis of the deposited data

Results flagged for a closer look

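The Ube2c level of T2 replicate 1 stood apart from the other T2 libraries. It was at 18.16 CPM, and the other 3 were between 9.05 and 10.2 CPM, a gap of 0.869 of the whole T2 range, over Dixon's critical value for 4 samples. The check was made for the 49 members at T2 only, which had 4 libraries, and groups of 3 were not checked, T0 with its replicate 3 included. Chance marks about 1 in 20 groups, and Ube2c was the only member marked among the 49, a smaller share than that. Without T2 replicate 1 the log2 fold change of Ube2c at T3 against T2 was 2.24 in place of 1.97.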

How the results depend on the processing

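The falls at T1 and T2 did not depend on the processing: 47 to 48 of the 49 members were called lower at T1 and 48 to 49 at T2 under every alternative run, with the replicate block giving 48 and 48. The T3 counts did. Against T0, 2 members were called in the fit of the 2 groups, 41 by DESeq2, 26 without the filter on low counts, 42 in 1 fit of all 12 libraries, 21 with the replicate block added to that fit, and 0 to 13 with 1 T0 library left out. Against T2, 2 were called higher, 47 by DESeq2, 47 without the filter, 0 in 1 fit of all 12, 0 with the replicate block, and 0 with any 1 T2 library left out. The share of all genes called at T3 under these alternatives is not given, so a higher count may reflect more calls over all genes. Between T1 and T2, 0 were called, 12 with the replicate block, 1 with the libraries numbered 1 and 2 only, and 0 with any 1 library left out. Leaving out a library means fewer samples, and for the other settings the cause was not tested. The log2 fold change of Cdc25b reversed its sign at T3 with 1 library left out: against T0 it was 0.0397 without T3 replicate 1 and -0.468 without T3 replicate 4, and against T2 it was 0.307 and -0.198. The replicate numbers did not pair T0 with T1 or T2 (r = -0.16 to 0.14, not every library best with its own number). T3 shares 1 number with T0 (r = 0.46 for replicate 1) and 2 with T2 (r = -0.054 and 0.29 for replicates 1 and 4). The deviations of the 2 T3 libraries from their mean mirror each other, so T3 replicate 4 deviated opposite to T0 replicate 1. Whether the T3 numbers pair cultures was not tested. With 2 T3 libraries, the T3 calls rest on the spread within that pair and within T0 or T2.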

Other observations

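Not all genes that act beside the members fell with them. Over the whole table, the share of genes called lower was 16.8% for T1, 21.8% for T2 and 1.41% for T3. Of 14 APC/C subunits and partners, 4 fell at T1, 5 at T2 and 0 at T3, with median log2 fold changes of -0.28, -0.29 and -0.25, and the lowest was Ube2s, the enzyme that extends ubiquitin chains on the APC/C, at -1.52 (SE 0.39 and edgeR adjusted p = 0.027) at T1. Anapc10, a core subunit, was at 0.18. Of 15 cohesin and condensin II genes, 11 fell at T1 and 12 at T2, with medians of -0.69 and -0.77. The lowest at T1 was Cdca5 (sororin), which guards cohesion until anaphase, at -3.52 (SE 0.34 and edgeR adjusted p = 0.00074), and the highest the acetyltransferase Esco1, at 0.40 (SE 0.13 and edgeR adjusted p = 0.053), whereas its S phase counterpart Esco2 fell by 3.46 on the log2 scale.

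Of 10 centriole genes 7 fell at T1 and 7 at T2, with Stil, which starts the new centriole, lowest at -3.55 (SE 0.30 and edgeR adjusted p = 0.00054) and Cep120 highest at 0.25. At T3, 4 of the 10 were called lower, Cep152, Cep192, Cep135 and Pcnt, where 2 of the 49 members were, although their median at T3 was -0.99 against -1.47. Of 19 DREAM and E2F genes 12 fell at T1 and 13 at T2, with E2f2 lowest at -3.83 (SE 0.28 and edgeR adjusted p = 0.00049) at T1. The retinoblastoma gene Rb1 was highest at 0.53 (SE 0.32 and edgeR adjusted p = 0.24), and it was at 51.7, 53.9 and 21.9 CPM in the T0 libraries, with the lowest value in T0 replicate 3. E2f7, which codes for a repressor of the E2F family, was at 2.03 at T3 against T2 (edgeR adjusted p = 0.054), and Mybl1 (A-MYB) was called higher there, at 1.63 (SE 0.20 and edgeR adjusted p = 0.021).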
